A study of Homo sapiens with 16 samples.

Results

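Expression of 10 tight junction and desmosome genes was examined by RNA sequencing in breast cancer cell lines. The genes are a list of names: CLDN1, CLDN3, CLDN4, CLDN7 and OCLN from the tight junction, and DSP, DSG2, DSC2, JUP and PKP3 from the desmosome. All 10 were found among the 18332 genes of the deposited table, and all 10 passed the filter on low values in every comparison. MDA-MB-231 and MDA-MB-468, both labelled estrogen receptor (ER) negative, were grown for 48 hours in 5 mM glucose (low glucose) or 25 mM glucose (high glucose), the culture model of hyperglycemia. There were 4 replicates in each of the 4 groups. The labels name no genetic modification, and each group holds cells of 1 line. Per the study's methods, MDA-MB-231 was kept in DMEM and MDA-MB-468 in RPMI, and cells were adapted to low glucose and treated without serum, so line and medium history cannot be told apart.

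Tight junctions seal the space between epithelial cells. Claudins are membrane proteins that form the paracellular strands and set which ions pass, and occludin runs within the same strands. Desmosomes are spot welds between cells: desmogleins and desmocollins, which are cadherins, bridge the gap, plakoglobin (JUP) and plakophilins form the plaque beneath them, and desmoplakin (DSP) ties that plaque to keratin filaments. Breast epithelium has both kinds of junction, and MDA-MB-231 is often classed among the claudin-low lines.

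The deposited values were normalized read counts, from which whole reads could be recovered. Libraries held 14094597 to 24425916 reads, so a count of 3 reads, the floor used here, stood for 0.123 to 0.213 CPM. The line labels were checked against marker genes. All 5 epithelial markers (CDH1, EPCAM, KRT8, KRT18 and KRT19) were higher in MDA-MB-468 than in MDA-MB-231 in low glucose, and VIM, FN1 and ZEB1, out of 4 mesenchymal markers tested, were lower. ESR1, which encodes ER-alpha, averaged 1.31 normalized reads in low-glucose MDA-MB-231 and 57.9 in low-glucose MDA-MB-468. Of 7 markers of leukocytes, endothelium, liver and red cells, 2 were found in the table: PTPRC stayed at or below 16.4 normalized reads in every library, and CDH5 at or below 2.37. Nothing in the labels says that replicates came from separate cultures, so p-values measure the spread between these samples, which may be technical. In bulk RNA, fewer cells that express a gene and less RNA per cell cannot be told apart.

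The promoter windows below are shown because E-box repressors such as ZEB1 and SNAI2, which read the motif CAGGTG, differed between the lines. Read from the opposite strand this motif is spelled CACCTG. They are the 250 bases before a transcription start in RefSeq on GRCh38.p14, printed 5′ to 3′ on the gene's strand, and capitals mark the motif. CLDN1 lies at chr3:190322447-190322696 (minus strand), CLDN3 at chr7:73770271-73770520 (minus strand) and DSG2 at chr18:31497927-31498176 (plus strand). RefSeq gives 2 starts for CLDN7, and the 30 bases next to 1 of them are shown, chr17:7262479-7262508 (minus strand).
CLDN1: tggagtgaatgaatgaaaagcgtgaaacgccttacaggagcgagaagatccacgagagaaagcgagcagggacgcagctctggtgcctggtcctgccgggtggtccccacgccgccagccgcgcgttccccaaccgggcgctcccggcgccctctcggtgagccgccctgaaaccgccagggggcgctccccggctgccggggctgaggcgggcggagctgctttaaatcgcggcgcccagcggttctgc
CLDN3: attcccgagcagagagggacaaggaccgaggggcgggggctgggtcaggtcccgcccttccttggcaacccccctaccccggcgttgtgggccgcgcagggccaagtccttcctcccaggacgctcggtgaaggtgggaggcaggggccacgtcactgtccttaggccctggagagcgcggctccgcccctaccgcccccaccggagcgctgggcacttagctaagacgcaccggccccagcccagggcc
DSG2: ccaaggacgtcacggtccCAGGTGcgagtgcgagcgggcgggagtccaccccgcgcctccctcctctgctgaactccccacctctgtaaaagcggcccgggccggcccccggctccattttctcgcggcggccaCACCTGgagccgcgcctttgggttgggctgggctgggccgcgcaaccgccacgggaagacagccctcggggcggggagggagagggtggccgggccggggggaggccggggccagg
CLDN7: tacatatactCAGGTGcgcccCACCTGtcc
Neither the CLDN1 nor the CLDN3 window holds the motif, whereas DSG2 has it 232 and 116 bases before the start. The CLDN7 piece holds the last 2 of 4 copies in its window, which begin 174, 135, 20 and 9 bases before that start. All 250 bases of that window lie within an annotated CLDN7 transcript, and the window of the other start, chr17:7263214-7263463, holds 0 copies. RefSeq gave 13 windows for 9 of the 10 genes. The motif, searched on both strands, was in 7 of these 13 windows, against 17.5% of all 35116 windows of this length. The 7 belong to 6 of the 9 genes (CLDN7, OCLN, DSP, DSG2, DSC2 and JUP), a count with no matching share per gene here. CLDN4 had none. CACGTG, the E-box of the MYC and MondoA families, was in 0 of 13 windows and in 6.34% of all. AACCGGTT, read by grainyhead factors, was in 0 of 13 and in 0.117% of all. A match describes letters in a window and is not a bound site.

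The first comparison asked how the lines differ in low glucose. In MDA-MB-468, 9 of the 10 genes were higher than in MDA-MB-231, by 1.34-fold for CLDN4 up to 41.4-fold for CLDN3, and DSG2 was lower. Claudins spanned the widest range of differences, and the plaque proteins differed by 2.36-fold to 3.35-fold. All 10 were called by limma at an adjusted p under 0.05, where 85.4% of the 17115 genes tested were also called, so the count itself is not particular to junction genes. The sizes stood further out: 8 of 10 changed by more than 1 on the log2 scale, against 47.9% of all genes. The median absolute log2 difference was 1.51 against 0.94, and the signed median was 1.51 against 0.08. The 4 values of each line did not overlap for any of the 10 genes, as for 80.5% of all genes tested. One line stands on each side of this comparison, so it describes these 2 lines.

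**Figure D1:**
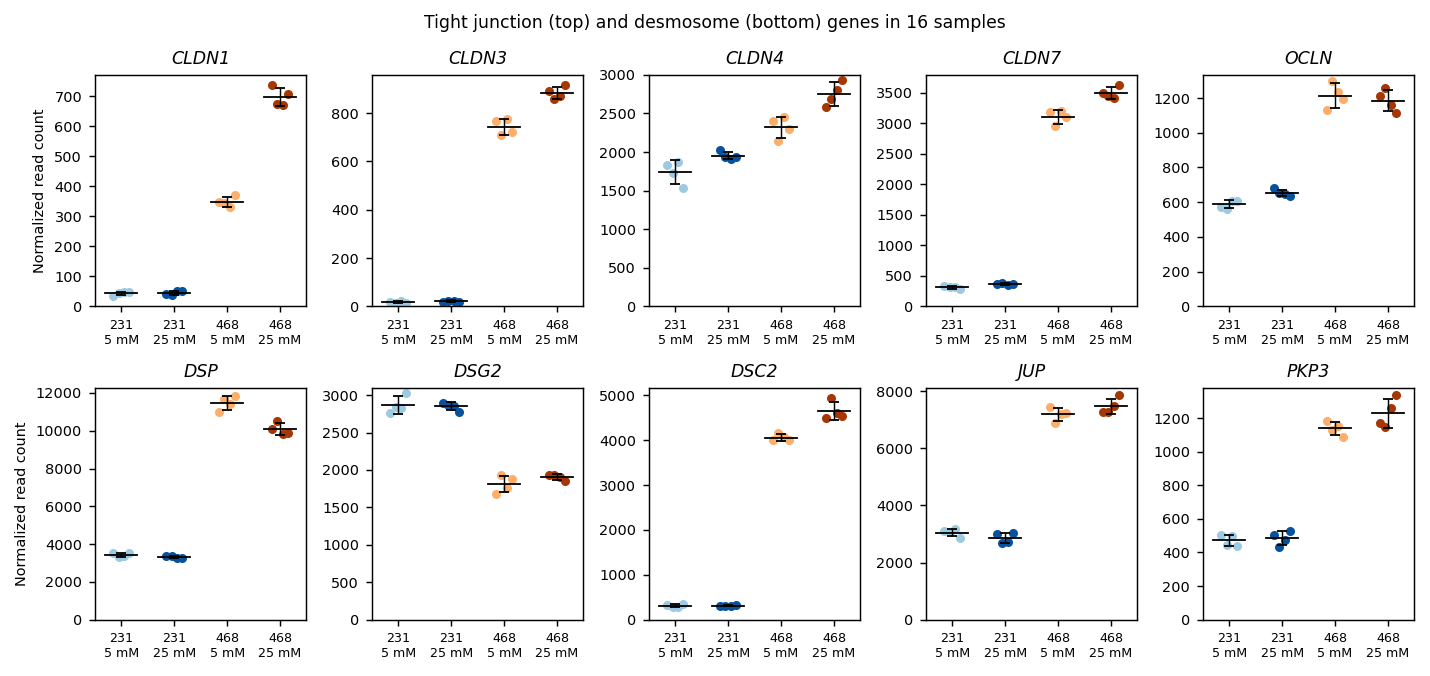
Normalized read count (y axis, linear, from 0) of each gene in the 16 samples, with the 4 groups on the x axis, where each line is given by the last digits of its name. Points are samples, the long bar is the mean and the whiskers are 1 SD (n = 4). DSG2 is the gene with lower values in MDA-MB-468, and CLDN1 is the gene with a clear step in high glucose in that line, from a mean of 349 to 698.

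Gene positions are on GRCh37. CLDN3 (ENSG00000165215, chr7:73183327-73184600) encodes a claudin in a single exon. Its normalized read counts were 17.9, 14.7, 23.5 and 13.4 in low-glucose MDA-MB-231, and 768, 708, 775 and 722 in low-glucose MDA-MB-468. Every MDA-MB-468 value lay far above every MDA-MB-231 value, which averaged 0.999 CPM. The log2 difference was 5.37 (SE 0.14, limma adjusted p 2.41e-16). CLDN4 (ENSG00000189143, chr7:73213872-73247020) is its neighbor on the chromosome, 29.3 kb away, and encodes the claudin most abundant in MDA-MB-231. Its counts were 1831, 1726, 1871 and 1531 in MDA-MB-231, and 2399, 2143, 2454 and 2293 in MDA-MB-468. The groups did not overlap, but the gap was small, at 0.42 on the log2 scale (SE 0.06, adjusted p 2.57e-06). Per kilobase of transcript, CLDN3 stood at 0.0132 ± 0.0025 of the CLDN4 level in MDA-MB-231 and at 0.426 ± 0.0094 of it in MDA-MB-468 (SD, n = 4).

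CLDN7 (ENSG00000181885, chr17:7163222-7167302) encodes a claudin that also sits along the basolateral membrane and binds EPCAM. In low glucose its counts were 334, 315, 322 and 279.6 in MDA-MB-231, and 3181, 2955, 3204 and 3103 in MDA-MB-468. That is a log2 difference of 3.31 (SE 0.05, adjusted p 1.05e-19). CLDN1 (ENSG00000163347, chr3:190023496-190040235) encodes a sealing claudin needed for the skin barrier. It had 35.7, 43.1, 46.9 and 47.3 normalized reads in MDA-MB-231, and 348, 345, 332 and 370.1 in MDA-MB-468. No values of either gene overlapped between lines, and CLDN1 was higher in MDA-MB-468 by 2.99 on the log2 scale (SE 0.10, adjusted p 1.20e-14).

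OCLN (ENSG00000197822, chr5:68788119-68853931) encodes occludin. It had 574, 563.6, 607 and 607 normalized reads in low-glucose MDA-MB-231, and 1131, 1298, 1233 and 1193 in MDA-MB-468. The log2 difference was 1.04 (SE 0.05, adjusted p 4.76e-13), less than for 3 of the 4 claudins. A partial copy of the gene, OCLNP1, is counted separately in the table at no more than 16.02 normalized reads in a library. How reads shared between such copies were assigned is not stated, so the OCLN level is uncertain by an amount not known here.

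The desmosomal cadherins parted in opposite directions. DSG2 (ENSG00000046604, chr18:29078140-29128971), the desmoglein of simple epithelia, had 2759.5, 2846, 2833 and 3029.9 normalized reads in low-glucose MDA-MB-231, and 1684, 1933, 1758 and 1875 in MDA-MB-468. All 4 MDA-MB-468 values lay below the MDA-MB-231 values, and the log2 difference was -0.66 (SE 0.04, adjusted p 2.70e-11). DSC2 (ENSG00000134755, chr18:28638806-28682485), a desmocollin encoded 395.7 kb away on the same chromosome, had 323, 292, 293 and 344 in MDA-MB-231, and 4001, 4156, 4071 and 4004 in MDA-MB-468. It was higher in MDA-MB-468 by 3.70 on the log2 scale (SE 0.05, adjusted p 2.06e-20). Per kilobase, DSC2 stood at 0.0504 ± 0.0034 of the DSG2 level in MDA-MB-231 and at 1.04 ± 0.055 of it in MDA-MB-468 (SD, n = 4). The DSC2 transcript used for this ratio is annotated at 12331 nucleotides, and the ratio in each line depends on that length.

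Plaque genes differed less than DSC2 and more than DSG2. DSP (ENSG00000096696, chr6:7541571-7586947) encodes desmoplakin and was the gene of the 10 with the highest mean count in each group, at 3548, 3309, 3345 and 3504 in low-glucose MDA-MB-231, and 10988, 11673, 11442 and 11818 in MDA-MB-468. The log2 difference was 1.74 (SE 0.03, adjusted p 8.36e-19). An antisense gene, DSP-AS1, is counted separately at up to 51.2 normalized reads in a library. JUP (ENSG00000173801, chr17:39910856-39943183) encodes plakoglobin, which also serves adherens junctions, and had 3107, 3066, 3170.4 and 2857 against 7453, 6896, 7197 and 7241. PKP3 (ENSG00000184363, chr11:392614-404908) encodes a plakophilin and had 504, 447, 495 and 439 against 1184, 1127, 1154 and 1089. Neither gene's values overlapped between lines, with log2 differences of 1.239 for JUP (SE 0.04, adjusted p 1.34e-14) and 1.27 for PKP3 (SE 0.06, adjusted p 3.73e-12). Levels can be ordered between genes only per kilobase. On that scale low-glucose MDA-MB-231 held most CLDN4 (1026 ± 89.6), then JUP (870.2 ± 38.7), DSG2 (503 ± 20.2) and DSP (353 ± 12.1), while CLDN3 (13.6 ± 3.53) and CLDN1 (12.6 ± 1.56) were lowest and differed by less than their SD. Low-glucose MDA-MB-468 held most JUP (2053 ± 65.6) and CLDN7 (2018 ± 73.0), which also differed by less than their SD, followed by CLDN4 (1370.1 ± 80.7) and DSP (1184 ± 37.4).

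The makeup of the claudin family was then compared, over the 13 claudins found in the table and per kilobase of transcript. CLDN4 made up 61.1 ± 1.89% of the claudin level in low-glucose MDA-MB-231 (SD, n = 4), followed by CLDN12 with 17.6 ± 2.05% and CLDN7 with 12.1 ± 0.339%. In low-glucose MDA-MB-468, CLDN7 led with 37.9 ± 0.245%, CLDN4 took 25.7 ± 0.736%, and CLDN10 and CLDN3 had 11.1 ± 0.342% and 10.96 ± 0.189%, which overlap. The summed claudin level per kilobase was 1679 ± 96.8 in low-glucose MDA-MB-231 and 5322 ± 164 in low-glucose MDA-MB-468. CLDN4 was thus the largest share of the smaller pool.

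**Figure D2:**
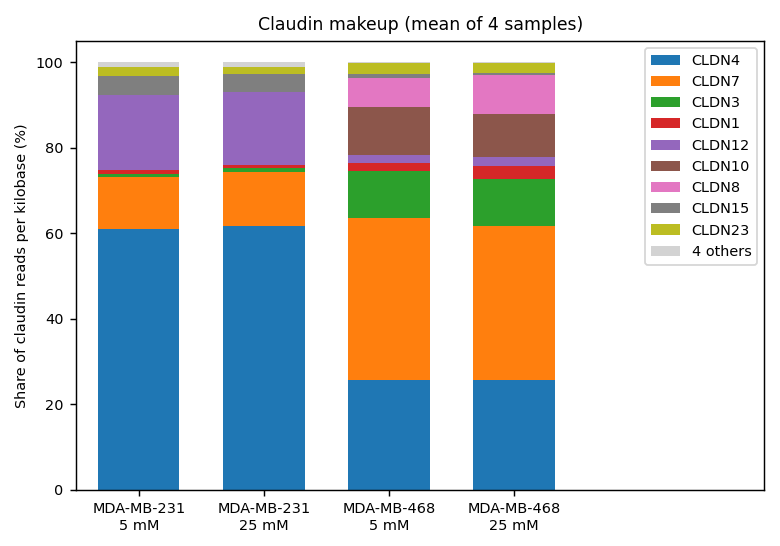
Share of the summed claudin level per kilobase (y axis, percent, mean of 4 samples) taken by each claudin in the 4 groups (x axis). CLDN4 fills 61.1% and 61.6% of the MDA-MB-231 bars, whereas CLDN7 leads both MDA-MB-468 bars with 37.9% and 35.9%.

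Other junction genes and their known regulators were listed by role and differed as follows in low glucose. Of all 17115 genes tested, 45% were called higher in MDA-MB-468 and 40.4% lower, so a call by itself is common here. Of the 9 other claudins tested, 5 were higher in MDA-MB-468 and 4 were lower. CLDN10, which forms ion pores, had 3 reads in all of low-glucose MDA-MB-231, while its MDA-MB-468 mean was 1459.7 normalized reads, and CLDN12 had a log2 difference of -1.54. Of 27 other tight junction proteins, 20 were higher and 6 lower. Among them AMOT, an angiomotin scaffold, had a log2 difference of 10.03 from a mean of 4.48 in MDA-MB-231, and MAGI1, a membrane scaffold, one of -2.57. Of 7 other desmosome proteins, 5 were higher and 1 lower: DSC3, a further desmocollin, had 1 read in all of low-glucose MDA-MB-231, while its MDA-MB-468 mean was 1623. The lower one, periplakin (PPL), had 0 reads in low-glucose MDA-MB-468 and was at least 174-fold lower there, taking the floor of 3 reads per library.

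Of 11 adherens junction genes, 6 were higher in MDA-MB-468 and 5 lower, against 45% and 40.4% of all genes tested. NECTIN4 had 0 reads in low-glucose MDA-MB-231 and was at least 384-fold higher in MDA-MB-468 on the same floor, while NECTIN3 had 2 reads in all of MDA-MB-468 against a mean of 1388 in MDA-MB-231. E-cadherin (CDH1), which organizes these junctions, averaged 5.51 ± 1.12 in MDA-MB-231 against 2007 ± 54.2 in MDA-MB-468. All 6 claudin partners and matriptase system genes were higher in MDA-MB-468. They include EPCAM, at 215 ± 15.1 and 5428 ± 146, and PRSS8 (prostasin), with 1 read in all of low-glucose MDA-MB-231 against a mean of 1668. Of 11 epithelial regulators, 10 were higher: GRHL2, a grainyhead factor, had 7 reads in all and a mean of 2377, ESRP1, a splicing regulator, had 12.5 ± 2.25 and 3688 ± 82.1, and OVOL2 had 0 reads and a mean of 85.4. KLF4 was the lower one, with a log2 difference of -4.06 (SE 0.05, adjusted p 1.80e-20). Of 5 E-box repressors tested, 3 were lower in MDA-MB-468 and 1, TWIST2, higher. ZEB1 averaged 1637 ± 86.1 and 2.84 ± 1.31, and SNAI2, at 381 ± 28.2 in MDA-MB-231, had 0 reads in MDA-MB-468.

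**Figure D3:**
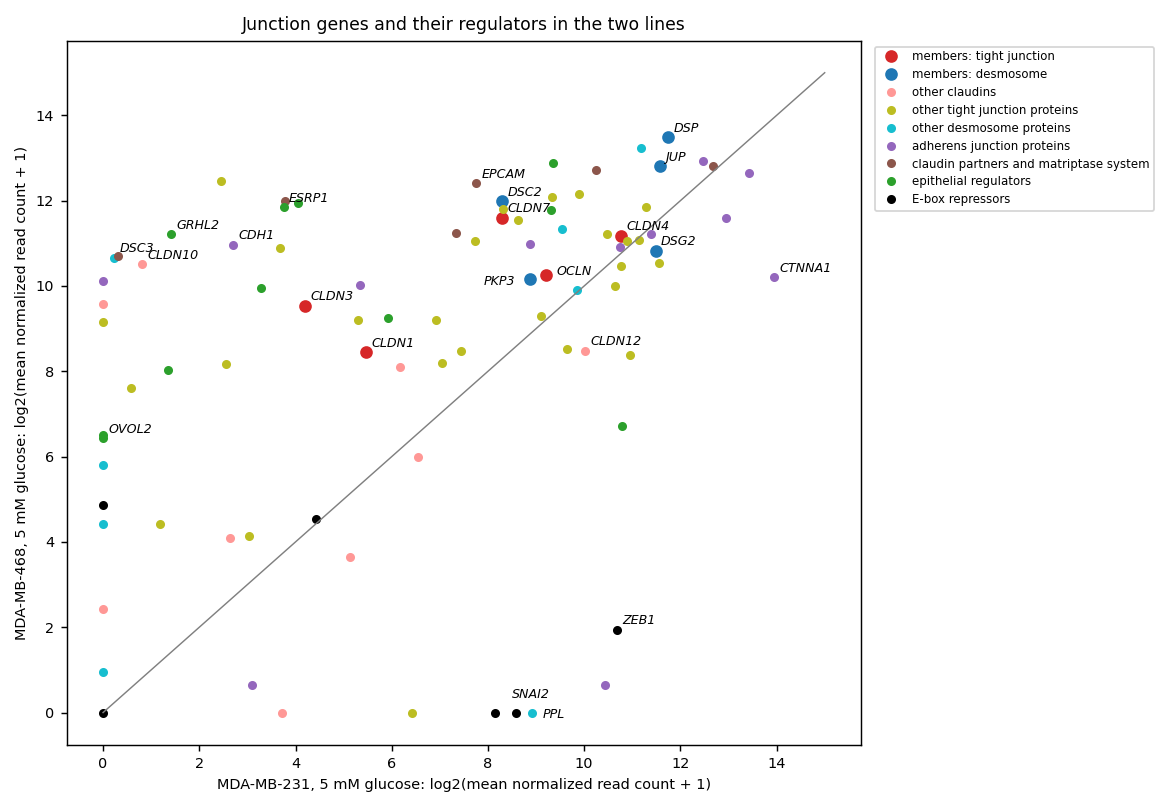
Mean level of each junction gene and regulator in low glucose, as log2(mean normalized read count + 1), in MDA-MB-231 (x axis) and MDA-MB-468 (y axis). Points above the diagonal are higher in MDA-MB-468: 9 of the 10 large points (the tight junction and desmosome genes of the list) lie above it and DSG2 lies below.

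The second comparison asked what high glucose altered within each line. In MDA-MB-231, CLDN7, CLDN4 and OCLN were slightly higher in high glucose, by 1.11-fold to 1.17-fold, and 0 of the 5 desmosome genes passed the test in limma, edgeR or DESeq2 (1, JUP, had an unadjusted p under 0.05 in limma). In MDA-MB-468, all 4 claudins and DSC2 were higher and DSP was lower. CLDN1 was the one large change, with a ratio of group means of 2.002. The other called genes of this line lay between 0.879-fold (DSP) and 1.19-fold (CLDN3). limma called 3 of 10 genes in MDA-MB-231, where 15.1% of 14884 genes were called, and 6 of 10 in MDA-MB-468, where 47.6% of 15757 were, so the second count is not far from its background. Groups did not overlap for the same 3 genes in MDA-MB-231 (18.7% of all genes tested) and the same 6 in MDA-MB-468 (42.5% of all). Median log2 fold changes of the 10 genes were 0.05 and 0.14, against 0.00 for all genes in each line. Their median absolute changes were below those of all genes: 0.083 against 0.101 in MDA-MB-231, and 0.178 against 0.208 in MDA-MB-468.

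**Figure D4:**
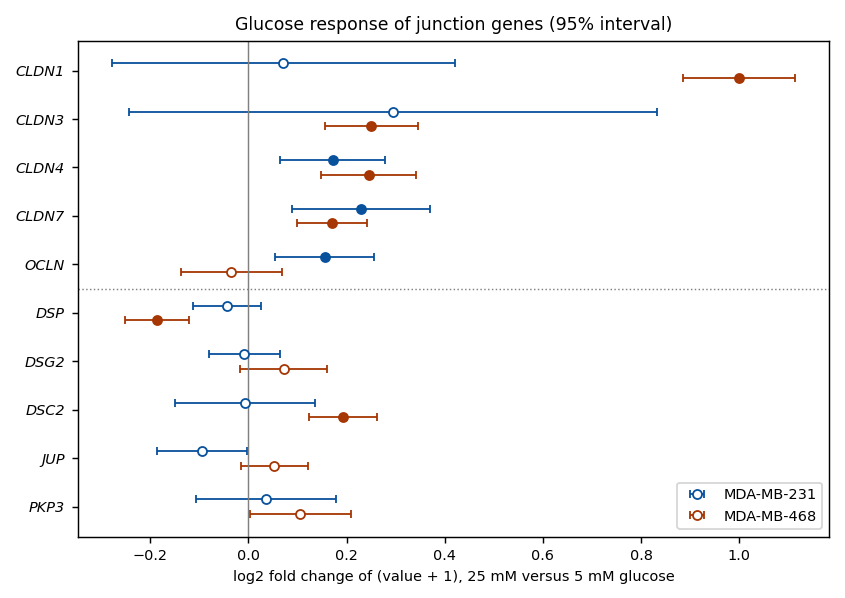
Log2 fold change of (normalized read count + 1) in high versus low glucose (x axis) for each gene (y axis; tight junction above the dotted line, desmosome below), with 95% intervals from limma. Filled points passed an adjusted p of 0.05. CLDN1 in MDA-MB-468, at 0.9997, stands apart from all others, and the MDA-MB-231 intervals of CLDN1 and CLDN3 are the widest.

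CLDN1 had 738, 675, 672 and 708 normalized reads in high-glucose MDA-MB-468, all well above the 332 to 370.1 in low glucose. The log2 fold change was 0.9997 (SE 0.05, adjusted p 4.75e-10), and 4.65% of the genes tested in this line had an absolute change at least as large. In high-glucose MDA-MB-231 the counts were 42.8, 37.9, 50.2 and 51.4. They overlapped the low-glucose values, and the log2 fold change of 0.07 had a 95% interval from -0.28 to 0.42 (adjusted p 0.835). The gene averaged 45.5 and 47.0 reads per library in the MDA-MB-231 groups, and a change within that interval was not detectable at this depth.

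CLDN4 rose in both lines. High-glucose counts were 2028, 1942, 1916 and 1932 in MDA-MB-231, and 2578, 2685, 2809 and 2934 in MDA-MB-468. The lowest high-glucose value was above the highest low-glucose value in each line, with log2 fold changes of 0.17 (SE 0.05, adjusted p 0.0303) and 0.24 (SE 0.05, adjusted p 0.000324). CLDN7 also rose in both. It had 369.8, 386, 348 and 359.5 normalized reads in high-glucose MDA-MB-231, and 3508, 3443, 3422 and 3635 in high-glucose MDA-MB-468. Its groups did not overlap in either line, and its log2 fold changes were 0.23 (SE 0.07, adjusted p 0.0277) and 0.17 (SE 0.03, adjusted p 0.000510). CLDN3 had 889.5, 859.7, 872 and 915 in high-glucose MDA-MB-468, clear of the low-glucose values, for a log2 fold change of 0.25 (SE 0.04, adjusted p 0.000212). A limma fit over all 4 groups, whose spread includes the low CLDN3 counts of MDA-MB-231, did not call it (adjusted p 0.165). In high-glucose MDA-MB-231 it had 17.5, 24.2, 24.1 and 19.02, which overlap the low-glucose values, and the interval ran from -0.24 to 0.83 (adjusted p 0.508).

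OCLN had 679, 652, 648 and 638 normalized reads in high-glucose MDA-MB-231, above all 4 low-glucose values. The log2 fold change was 0.16 (SE 0.05, adjusted p 0.0361). In MDA-MB-468 the high-glucose counts of 1211, 1257, 1158 and 1113 overlapped the low-glucose counts, with an interval from -0.14 to 0.07 (adjusted p 0.590). The MDA-MB-231 calls were weak: without low-glucose replicate 2, high-glucose replicate 1 or high-glucose replicate 2 of that line, 0 of the 10 genes passed limma's adjusted p, while 3, 4 and 3 had an unadjusted p under 0.05. Without high-glucose replicate 3 or 4, 1 passed, CLDN7, and without low-glucose replicate 1 OCLN did not (adjusted p 0.0959). Without low-glucose replicate 4, CLDN4 had a log2 fold change of 0.11 and was called, whereas CLDN7 had 0.18 and was not (adjusted p 0.0636). All 3 fold changes stayed above 0 whichever replicate was left out. DESeq2 on the recovered reads did not call OCLN (adjusted p 0.0524), nor did the limma fit over all 4 groups call CLDN4 (adjusted p 0.0634).

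Among the desmosomal cadherins, DSC2 rose in MDA-MB-468. Its high-glucose counts were 4500.1, 4935, 4601 and 4531, all above low glucose, for a log2 fold change of 0.19 (SE 0.03, adjusted p 0.000136). In MDA-MB-231 they were 312, 297, 316 and 319, within the low-glucose range, with an interval from -0.15 to 0.14. DSG2 was not called in either line, with intervals from -0.08 to 0.06 for MDA-MB-231 and from -0.02 to 0.16 for MDA-MB-468. Leaving out low-glucose replicate 2 of MDA-MB-468 brought its log2 fold change to 0.10 and its adjusted p to 0.0475.

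DSP fell in MDA-MB-468. Desmoplakin counts were 10114, 10536, 9839.6 and 9885 in high glucose, all below the lowest low-glucose value of 10988, and the log2 fold change was -0.19 (SE 0.03, adjusted p 0.000101). In MDA-MB-231 the high-glucose counts of 3385, 3354, 3288 and 3266 overlapped low glucose, with an interval from -0.11 to 0.02. JUP was not called in MDA-MB-231 (log2 fold change -0.09, interval -0.19 to -0.0030, adjusted p 0.168) or in MDA-MB-468 (0.05, interval -0.02 to 0.12), though without low-glucose replicate 4 of MDA-MB-231 it was (-0.13, adjusted p 0.0380). PKP3 was not called either, with intervals from -0.11 to 0.18 for MDA-MB-231 and from 0.0032 to 0.21 for MDA-MB-468, where it was called without high-glucose replicate 2 (0.14, adjusted p 0.0265). The ratio of JUP to DSP per kilobase in MDA-MB-468 was 1.74 ± 0.103 in low glucose and 2.05 ± 0.127 in high glucose (SD, n = 4).

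Transcript length moved with the glucose response. Across 14289 genes of MDA-MB-231, length and log2 fold change had a Spearman's rho of -0.194, and across 15079 genes of MDA-MB-468 one of -0.148. Genes are not independent replicates, so no p is given. DSP, OCLN, DSG2 and DSC2, at 9697, 6181, 5697 and 12331 nucleotides, are above the 75th percentile of length (4857.5 in MDA-MB-468). CLDN3, CLDN4 and CLDN7, at 1274, 1695 and 1542 nucleotides, are below the 25th (1753.5), and CLDN1, JUP and PKP3 lie between. DSC2, the longest of the 10, rose in MDA-MB-468. After a loess correction for length in MDA-MB-468, the log2 fold changes were -0.09 for DSP (adjusted p 0.00252), 0.11 for CLDN7 (adjusted p 0.00416), 0.31 for DSC2 and 0.99 for CLDN1. DSG2 was then called (0.12, adjusted p 0.0142). The part of length in these results was not tested otherwise.

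The difference between the lines' responses was tested as an interaction in limma, MDA-MB-468 minus MDA-MB-231. It was called for 4 of 10 genes, against 30.9% of 17115 genes tested. CLDN1 differed most, by 0.93 on the log2 scale (SE 0.14, adjusted p 0.000102). DSC2 followed with 0.20 (SE 0.07, adjusted p 0.0329), and the difference was below 0 for OCLN, at -0.19 (SE 0.07, adjusted p 0.0357), and for DSP, at -0.14 (SE 0.04, adjusted p 0.0161). CLDN1 and DSP stayed called in each of the 26 alternatives, with ranges of 0.85 to 1.02 and -0.21 to -0.09. The OCLN call was lost, with adjusted p between 0.0518 and 0.0773, when low-glucose replicate 1 or 2 or high-glucose replicate 1 or 2 of MDA-MB-231, or low-glucose replicate 2 or 3 or high-glucose replicate 3 or 4 of MDA-MB-468, was left out. DSC2 lost its call under quantile normalization (adjusted p 0.107). It also did, with adjusted p between 0.0501 and 0.0686, without low-glucose replicate 1 or 4 or high-glucose replicate 2 of MDA-MB-231, or low-glucose replicate 1, 3 or 4 or high-glucose replicate 2 of MDA-MB-468. JUP was called without low-glucose replicate 4 of MDA-MB-231 (0.18, adjusted p 0.0254) or high-glucose replicate 4 (0.18, adjusted p 0.0326), and by DESeq2. For CLDN4 and CLDN7, which rose in both lines, the differences of 0.07 (interval -0.10 to 0.24) and -0.06 (interval -0.20 to 0.09) were not called. With single libraries left out they ranged from 0.035 to 0.13 and from -0.090 to -0.0054. Those of CLDN3, DSG2, JUP and PKP3 were not called either, with adjusted p from 0.0737 to 0.898.

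Related genes were listed by role in the same way. Of all 14884 genes tested in MDA-MB-231, limma called 5.71% higher and 9.37% lower. In MDA-MB-231, limma called 0 of 6 other claudins tested (1 had an unadjusted p under 0.05), 1 higher and 2 lower of 23 other tight junction proteins, 1 lower of 4 other desmosome proteins and 1 lower of 10 adherens junction genes. F11R, which encodes the junctional adhesion molecule JAM-A, rose by 0.14 on the log2 scale, and AMOTL1, an angiomotin relative, fell by 0.24. EVPL (envoplakin) fell by 0.20 and NECTIN1 fell by 0.44. Of 5 claudin partners and matriptase genes, 1 was called: SPINT1, an inhibitor of matriptase, rose by 0.34 (adjusted p 0.0196). KLF4 and ESRP2 rose among 7 epithelial regulators, KLF4 by 0.24, and SNAI2 fell by 0.38 (adjusted p 0.00179), the 1 called of 4 E-box repressors. Of 5 epithelial markers tested, 1 was called, KRT18, higher (log2 fold change 0.10), while others, such as KRT19 (-0.04), were not. Of 3 mesenchymal markers tested, VIM (-0.09) and FN1 (-0.26) were called lower. Their part in the junction results was not tested.

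In MDA-MB-468, 24.9% of all 15757 genes tested were called higher in high glucose and 22.7% lower, so many list counts lie near that share. Of 8 other claudins, 4 were called higher and 1 lower. CLDN8, a claudin with 0 reads in MDA-MB-231, rose by 0.65 (SE 0.04, adjusted p 5.90e-09), from 761 ± 34.2 to 1192 ± 40.0 normalized reads. Of 26 other tight junction proteins, 3 were higher and 7 lower. Of those averaging 5 CPM or more in the higher group, CGNL1 (paracingulin, 0.63) rose most and AMOTL2 (-0.60) fell most. Of 6 other desmosome proteins, 2 were higher and 1 lower: PERP, a desmosomal membrane protein, rose by 0.32 (adjusted p 7.07e-08), DSC3 rose by 0.18, and the plakophilin PKP2 fell by 0.41 (adjusted p 4.59e-07). Adherens junction genes gave 4 higher and 2 lower of 10, with NECTIN1 at 0.52 and alpha-catenin (CTNNA1) at -0.16. NECTIN1 thus fell in one line and rose in the other, and KLF4 did the reverse. Each of these differences was called as an interaction.

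Among 6 claudin partners and matriptase genes of MDA-MB-468, 4 were called higher and 0 lower, against 24.9% and 22.7% of all genes tested. EPCAM rose by 0.17 (adjusted p 0.000114). Of 11 epithelial regulators, 6 were higher and 2 lower, with ELF3 at 0.50, OVOL2 at 0.42, KLF4 at -0.47 and GRHL2 at -0.10. SNAI1 was called higher, the 1 of 2 E-box repressors tested. Some markers moved here too. Of 5 epithelial markers, 4 were called higher, KRT8, KRT18, KRT19 and EPCAM, by 0.12 to 0.50. Of 3 mesenchymal markers tested, FN1 fell by 0.22, while VIM (0.26) and SPARC (-0.05) were not called. Of the receptor markers, ESR1 (-0.41) was called lower and ERBB2 (0.15) higher. PTPRC, a leukocyte gene at a mean of 8.77 normalized reads in low and 3.12 in high glucose, was called lower. The part of these markers in the result was not tested. The CDH1 response was not called in either line (adjusted p 0.608 and 0.200).

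**Figure D5:**
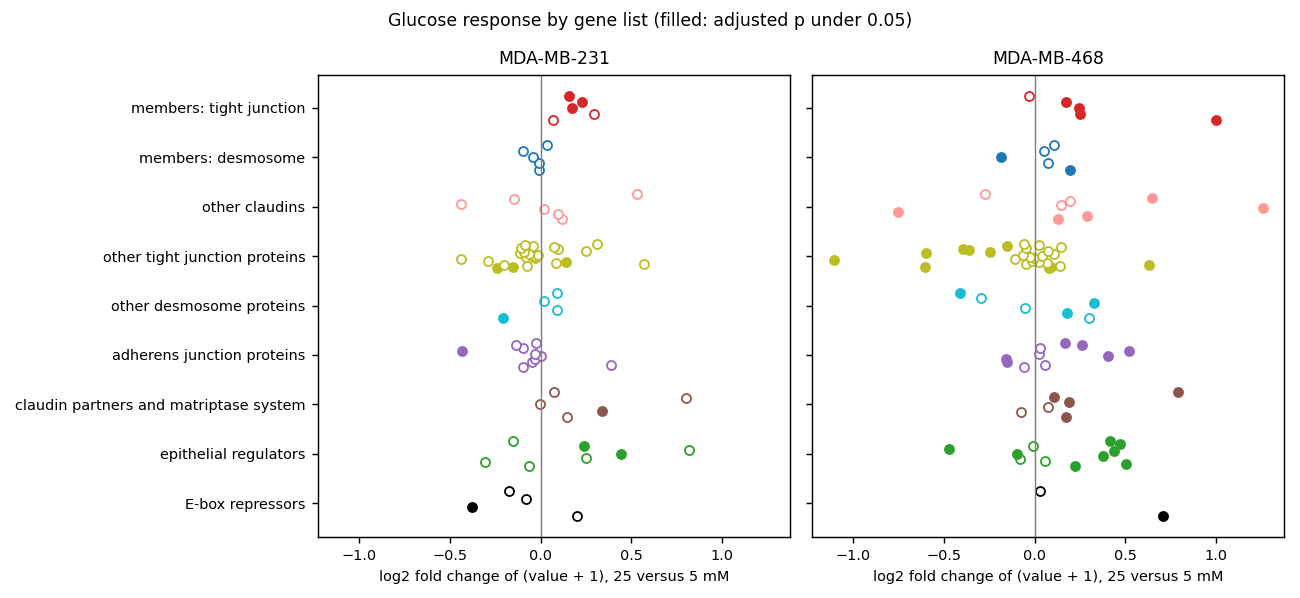
Log2 fold change of (normalized read count + 1) in high versus low glucose (x axis) for each tested gene of the lists (y axis), in MDA-MB-231 (left) and MDA-MB-468 (right). Filled points passed an adjusted p of 0.05. The listed tight junction genes hold 3 filled points at 0.16 to 0.23 in MDA-MB-231 and 4 at 0.17 to 0.9997 in MDA-MB-468.

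CLDN4 and CLDN7 stayed the largest shares of the claudin pools in high glucose. CLDN4 held 61.6 ± 0.886% of it in high-glucose MDA-MB-231 and 25.7 ± 0.875% in high-glucose MDA-MB-468, where the CLDN1 share was 3.21 ± 0.166% against 1.90 ± 0.118% in low glucose and the CLDN8 share 9.02 ± 0.473% against 6.85 ± 0.483%. Neither pair of shares overlapped between the glucose groups. The CLDN7 share in MDA-MB-468 was 35.9 ± 0.680% in high glucose against 37.9 ± 0.245% in low glucose. That fall was also without overlap, as were those of CLDN10 and CLDN15. The summed claudin level per kilobase was 1871 ± 25.8 in high-glucose MDA-MB-231 and 6323 ± 152 in high-glucose MDA-MB-468, above all low-glucose values of the same line. With the larger CLDN1 level in high glucose, the ratio of mean CLDN1 counts between the lines was 15.3 in high glucose and 8.06 in low glucose.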

How the data were processed

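RNA was sequenced from 16 samples of MDA-MB-231 and MDA-MB-468, 4 per line and glucose level. The authors trimmed the reads, aligned them with TopHat to hg19 with an Ensembl annotation and used DESeq2 and edgeR, per their methods, while the submitters' processing notes name hg38. The counting program and its use of strand are not given in the sources used here. The deposited table holds a size-factor normalized signal: the authors scaled each library's read counts by 1 factor. All values were whole multiples of 1 read within a tolerance of 0.1, with a largest deviation of 5.39e-05, so whole reads were recovered. Of 18332 Ensembl IDs, 17647 had a symbol in GENCODE v44 lifted to GRCh37. That annotation, which matches the methods' build, gave positions and the length of the canonical transcript. RefSeq gave promoters on GRCh38.p14.

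Genes reaching 0.5 CPM in 2 samples of a line were tested within it with limma 3.58.1 (R 4.3.3, lmFit and eBayes with trend, two-sided) on log2(value + 1), with Benjamini-Hochberg adjustment over all genes tested and a threshold of 0.05. This scale understates the change of genes with few reads. The difference between lines and its interaction with glucose came from a limma fit with 4 group means. Alternatives were other pseudocounts, filters and scalings, the replicate number as a block, a fit over all groups, edgeR 4.0.16 and DESeq2 1.42.0 on recovered reads, leaving out each replicate in turn, and, chosen after seeing the data, a loess correction for transcript length. The test was checked on simulated data. The 10 genes and all lists were chosen with earlier results of these data known. Named besides the 10 genes were CDH1, EPCAM, GRHL2, OVOL2, ESRP1, ZEB1 and SNAI2 and, per list and comparison, the largest called rise and fall whose higher group averaged 5 CPM or more. Other named genes were chosen after their values were seen. One gene that this rule names is not reported here. The floor of 3 reads covers counting error only. The labels give no sequencing batch.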

Additional observations from a re-analysis of the deposited data

Results flagged for a closer look

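A far sample was looked for in each of 40 combinations of gene and group (4 samples each), by the gap to the nearest value as a share of the range, and 0 were found. The glucose response differed between the lines, by the interaction in limma and on the log2 scale, for 4 genes. It was larger in MDA-MB-468 for CLDN1, by 0.93, and for DSC2, by 0.20. For OCLN the response in MDA-MB-468 minus that in MDA-MB-231 was -0.19, and for DSP it was -0.14. The OCLN and DSC2 differences lost their calls when single libraries were left out, whereas those of CLDN1 and DSP did not.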

How the results depend on the processing

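The number of the 10 genes called was 10 in all 25 alternatives for the line difference and 5 to 7, against 6, in 19 alternatives for MDA-MB-468. With single replicates left out it was 0 to 3, against 3, in MDA-MB-231 and 2 to 5, against 4, for the difference of responses. The 5 MDA-MB-231 fits that called 0 or 1 of the 10 genes had 3 samples in a group and called 1629 to 1828 genes in all, against 2245. The fit without low-glucose replicate 4 of that line also had 3 samples in a group. It called 3 of the 10 genes and 2389 genes in all. Among single-gene values, 828 kept direction and call, 35 lost the call, 7 gained it and 20 changed sign. All 20 were of genes without a call. In MDA-MB-231, the length correction gave log2 fold changes of 0.014 for DSP, 0.023 for DSG2 and 0.062 for DSC2, and quantile normalization gave 0.023 for DSG2 and 0.0023 for DSC2. In MDA-MB-468, the length correction gave 0.018 for OCLN and quantile normalization -0.00050 for JUP. The CLDN3 difference of responses was 0.0075 with a pseudocount of 5 and 0.013 with quantile normalization. Leaving out 1 replicate gave MDA-MB-231 ranges of -0.016 to 0.15 for CLDN1, -0.026 to 0.019 for DSG2, -0.039 to 0.040 for DSC2 and -0.0082 to 0.091 for PKP3, and -0.19 to 0.064 for the CLDN3 difference. The cause of these changes was not tested.

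The replicate numbers gave little sign of pairing: correlations of same-numbered deviations ran from -0.040 to 0.032, and 0 of 8 pairs passed 0.1. Of the 8, 3 matched their own number best, all of them in MDA-MB-468. The correlations ran from 0.017 to 0.032 in that line and from -0.040 to -0.0051 in MDA-MB-231. With the replicate block, 2 genes were called in MDA-MB-231, since OCLN had an adjusted p of 0.0855. The counts were 6, 4 and 10 in the other comparisons. Depth limits CLDN3 and CLDN1 in MDA-MB-231, which had 18.5 and 45.5 reads per low-glucose library on average.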
